A study of Mus musculus with 12 samples.

Results

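Heat shock proteins and their partner chaperones were examined in polyribosome-bound RNA of rod photoreceptors and in total RNA of the mouse retina. The 10 genes were Hspa1a, Hspa1b, Hsph1, Dnajb1, Hspa8, Hsp90aa1, Hspb1, Hspa5, Hspd1 and Hspe1, out of 56748 genes in the deposited table. They were chosen by name, because Hspa1a ranks among the genes with the greatest excess in rods over retina in these same libraries. The difference between rods and retina is therefore given as a description with no test, and only the effect of the Pkm2 knockout was tested. All 10 genes had enough reads to enter each main test.

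Heat shock proteins are chaperones that bind unfolded or newly made proteins and help them fold, refold or be degraded. Heat, oxidants and other stresses release the transcription factor HSF1, which binds arrays of short heat shock elements in front of the inducible genes, while a separate response driven by unfolded proteins in the endoplasmic reticulum controls chaperones of that compartment. Rods make large amounts of membrane protein and renew part of their outer segments daily, so folding and trafficking of membrane proteins is a constant demand in these cells.

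RNA was sequenced from 3 libraries in each of 4 groups. Control mice (Pkm2Rodhet, labelled wt) carried the i75 Cre transgene, which is active in rods, and 1 floxed Pkm2 allele, and knockout mice (Pkm2Rodko, labelled ko) carried the same Cre with both alleles floxed. The control is thus a Cre-positive heterozygote and not an untouched wild type, and all animals were homozygous for the Ribo-Tag allele, which puts an HA tag on ribosomes of the cells that express Cre. The bead libraries hold the RNA pulled down with the tagged ribosomes by translating ribosome affinity purification (TRAP) and are called rods below, and the input libraries hold the RNA before the pulldown and are called retina. Tissue was frozen after perfusion with cycloheximide, which holds ribosomes on their RNA. The age of the mice is 2 months in the methods and 2 weeks in the deposited description. No source says that the 3 libraries of a group came from separate animals, so p-values measure only the spread between these libraries.

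Each library held between 13458890 and 22790074 reads on genes. Pkm was lower in the knockout, at 22246 to 23751 deposited units in rods against 51049 to 54504 in control rods (log2 difference -1.20, limma adjusted p = 5.4e-05), and by -0.65 in retina (limma adjusted p = 0.022). All 10 rod markers, among them Gnat1 and Nrl, had every rod library above every retina library, with a median log2 difference of 1.94. No marker of the 10 other cell types listed was higher in rods. The summed level of the 9 Müller glia markers was 7948 to 12367 scaled reads in rods and 61127 to 77265 in retina, and none of these 9 genes was at 0 in all rod libraries. The source of the marker RNA of other cells in the rod libraries was not tested. Between genotypes, fewer cells of a type and less RNA per cell cannot be told apart in bulk RNA.

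The sequences in front of Hspa1a and Hspa1b are shown first, because both genes had a like excess in rods. These stretches overlap no annotated exon. How well the reads of both genes can be told apart is limited by the sequence their transcripts share, given below. The genes lie side by side on chromosome 17, and each encodes the stress-inducible HSP70, the ATP-driven chaperone that grips exposed hydrophobic stretches of client proteins. The 250 bases before each start, from RefSeq on build GRCm38.p6, were identical at 247 positions, and the substitutions from Hspa1a to Hspa1b were C44T, T47C and T249G, counted from 1 at the first printed base. Both are on the minus strand, at chr17:34972157-34972406 for Hspa1a and chr17:34959239-34959488 for Hspa1b. Capitals mark a heat shock element pair, the letters GAANNTTC, which spans -104 to -97 from the start in both genes.
Hspa1a: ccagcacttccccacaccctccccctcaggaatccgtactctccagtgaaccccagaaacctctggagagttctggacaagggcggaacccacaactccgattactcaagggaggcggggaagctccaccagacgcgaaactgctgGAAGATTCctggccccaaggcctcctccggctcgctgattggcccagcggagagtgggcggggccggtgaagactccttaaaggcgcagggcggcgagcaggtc
Hspa1b: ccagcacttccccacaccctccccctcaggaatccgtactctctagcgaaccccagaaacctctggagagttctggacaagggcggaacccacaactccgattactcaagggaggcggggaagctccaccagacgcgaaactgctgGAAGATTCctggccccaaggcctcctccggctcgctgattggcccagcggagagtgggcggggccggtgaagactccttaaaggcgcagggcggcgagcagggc

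Both orientations of the heat shock element pair, GAANNTTC and TTCNNGAA, were searched in the 300 bases around each RefSeq start, 250 before it and the rest after it. Both letter strings read the same on the other strand. Of 32851 mouse promoters of this length, 7.86% held the first and 8.52% the second. A triple element, in which 3 units alternate, stood in 0.603%. RefSeq promoter entries were found for 8 of the 10 genes, all but Hspa8 and Hsp90aa1.

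Hspb1, Hspe1, Hsph1 and Hspa5 show how the promoters of the other genes differ. Hspb1 (plus strand, chr5:135887669-135887918) encodes the small heat shock protein HSP25, which holds unfolded proteins without using ATP, and held 2 pairs, at -117 to -110 and at -97 to -90. Hspe1 encodes the mitochondrial co-chaperonin HSP10 and shares a bidirectional promoter with Hspd1, which encodes the chaperonin HSP60 itself. Its window (plus strand, chr1:55088053-55088082) held 3 overlapping pairs between -89 and -72. Hsph1, the HSP110 protein that swaps the nucleotide on HSP70, held 1 pair before its start, at -33 to -26 (minus strand, chr5:149636351-149636380). Hspa5 encodes BiP, the HSP70 of the endoplasmic reticulum, and held no pair. Its window (plus strand, chr2:34772019-34772048) held instead the endoplasmic reticulum stress element, CCAAT followed 9 bases later by CCACG, which stood in 0.119% of the promoters. Capitals mark these motifs.
Hspb1: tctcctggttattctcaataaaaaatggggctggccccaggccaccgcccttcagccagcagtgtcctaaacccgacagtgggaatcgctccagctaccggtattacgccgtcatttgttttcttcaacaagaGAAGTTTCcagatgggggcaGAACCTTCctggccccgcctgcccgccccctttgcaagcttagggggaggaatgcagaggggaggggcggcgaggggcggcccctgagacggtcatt
Hspe1: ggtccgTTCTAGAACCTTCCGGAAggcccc
Hsph1: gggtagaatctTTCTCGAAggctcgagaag
Hspa5: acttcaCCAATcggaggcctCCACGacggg

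Dnajb1, the HSP40 protein that delivers clients to HSP70, had no pair in this window in either of its RefSeq entries, and no match says only that these letters are not there. Whether these motifs relate to the levels described below was not tested.

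Levels were compared between rods and retina as reads scaled by the trimmed mean of M values (TMM) over all 12 libraries. Hspa1a stood at 1045, 934 and 1062 scaled reads in the 3 control rod libraries and at 1132, 824 and 744 in the 3 knockout rod libraries. In retina it stood at 171, 163 and 262 in control and at 253, 208 and 267 in knockout. Every rod library was above every retina library, with no overlap and a gap of more than the whole spread of the retina libraries. The mean log2 difference between rods and retina was 2.12 (SD 0.41 over 6 preparations), or 4.36-fold, and it was the 11th highest of 25584 genes.

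Hspa1b was at 1279, 1001 and 1262 scaled reads in control rods and at 1429, 1031 and 1019 in knockout rods. It was at 216, 185 and 320 in control retina and at 356, 287 and 318 in knockout retina. It had the same shape as Hspa1a, with a log2 difference of 2.08 (SD 0.34, n = 6 preparations), the 19th highest of all genes.

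Hspa1a and Hspa1b are not separate witnesses to this difference. Only 33.7% of the distinct stretches of 50 bases in the Hspa1a transcripts and 37.7% of those in Hspa1b occurred in no other gene, and the rule used to count reads that match both is not stated in the sources used here. The reads of both genes added together gave 1764 to 2561 scaled reads in rods and 348 to 609 in retina, a log2 difference of 2.10. Hspa1a took 42.2% to 48.3% of the summed reads in the rod libraries and 41.5% to 46.8% in the retina libraries, so the ratio of one gene to the other was alike in both fractions.

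Hsp90aa1, the stress-inducible form of cytosolic HSP90, which finishes the folding of kinases and receptors, had the next greatest excess in rods. It was at 54538, 54999 and 50921 scaled reads in control rods and at 56561, 55055 and 65620 in knockout rods. In retina it was at 19191, 20606 and 16529 in control and at 18289, 16198 and 19234 in knockout. The groups of rod and retina libraries stood far apart. The log2 difference was 1.62 (SD 0.14, n = 6 preparations), or 3.07-fold. Per kilobase of exon, Hsp90aa1 was the most abundant of the 10 genes in every group, at 13606 ± 568 scaled reads in control rods and 4776 ± 527 in control retina (SD, n = 3).

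Hspa5, Hspd1 and Dnajb1 were about equally far above retina. Hspa5 ranged from 6655 to 8801 scaled reads in rods and from 2949 to 4143 in retina, a log2 difference of 1.06 (SD 0.12, n = 6). Hspd1 ranged from 3140 to 3643 in rods and from 1519 to 1853 in retina, a log2 difference of 1.02 (SD 0.17, n = 6). Dnajb1 ranged from 1638 to 2241 in rods and from 922 to 1039 in retina, a log2 difference of 1.01 (SD 0.12, n = 6). These 3 values lay within each other's spread, although the genes belong to the endoplasmic reticulum, the mitochondrion and the cytosol.

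Hspa8, the constitutive cytosolic HSP70 that also uncoats clathrin vesicles, ranged from 16316 to 24468 scaled reads in rods and from 11149 to 12898 in retina, a log2 difference of 0.74 (SD 0.19, n = 6). Hsph1 ranged from 1276 to 1884 in rods and from 813 to 1068 in retina, a log2 difference of 0.74 (SD 0.11, n = 6). Hspe1 had 506 to 791 scaled reads in rods and 429 to 586 in retina, which overlapped, and its log2 difference of 0.30 (SD 0.22, n = 6) lay below that of its partner Hspd1 in every preparation.

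Hspb1 ran the other way. It was at 13.1, 7.44 and 15.9 scaled reads in control rods and at 9.11, 6.79 and 4.02 in knockout rods, from 4 to 10 reads in a library. In retina it was at 54.0, 32.4 and 78.3 in control and at 89.1, 54.8 and 65.4 in knockout. No rod library reached the lowest retina library, and the log2 difference of -2.65 (SD 0.71, n = 6) was 6.27-fold lower in rods. Markers of Müller glia, astrocyte-like support cells of the retina, had a median log2 difference of -2.98 over 9 genes, of which none was at 0 in rods. The medians of the other cell types listed ranged from -3.32 (microglia) to -0.66 (cones), with endothelial cells at -3.22 and red blood cells at -2.59. The part of RNA of any of these cells in the Hspb1 level was not tested.

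**Figure D1:**
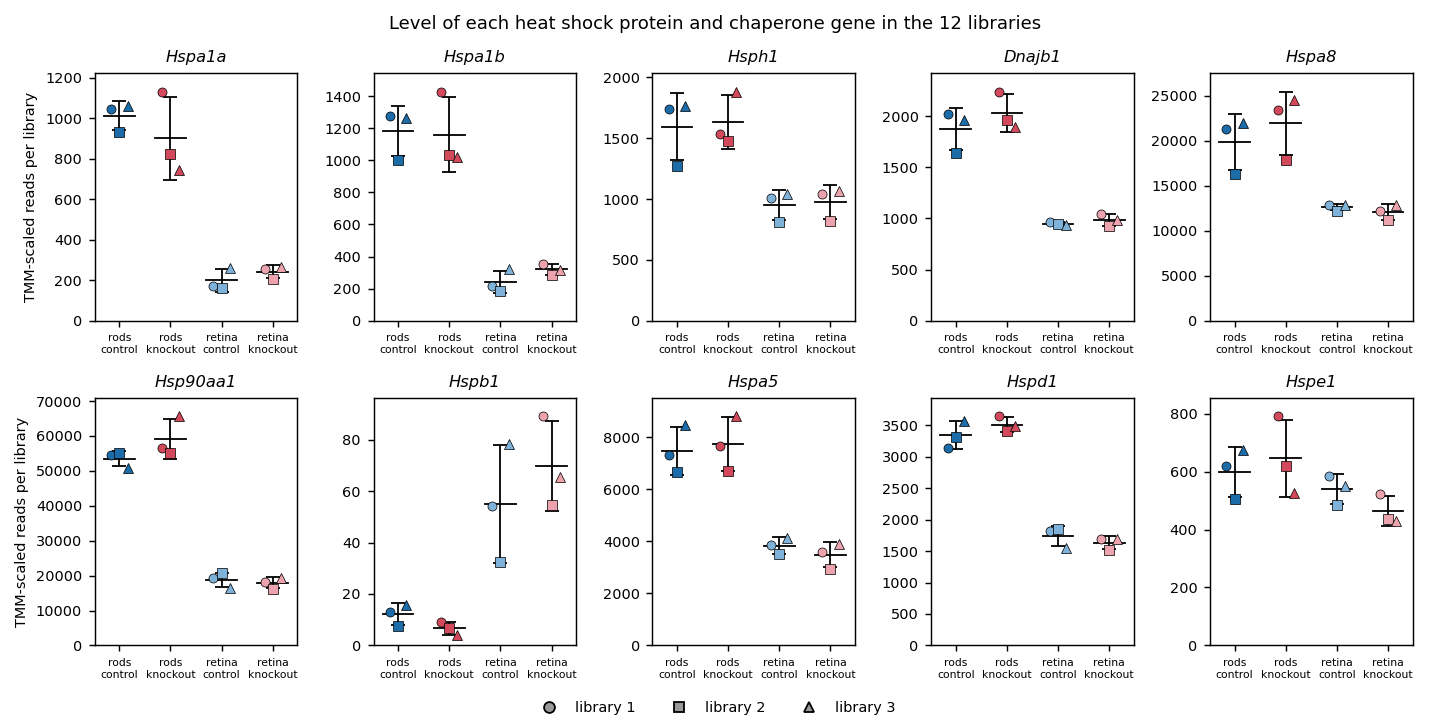
Scaled reads (TMM over all 12 libraries, linear axis from 0) of each gene in the 3 libraries of each group. Points are libraries, with the shape giving the library number, and bars are the mean ± SD. Hspa1a is at 744 to 1132 in rods and 163 to 267 in retina, whereas Hspb1 is at 4.02 to 15.9 in rods and 32.4 to 89.1 in retina, and Hspe1 overlaps.

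In all, 8 of the 10 genes had all 6 rod libraries above all 6 retina libraries and 1 had them below. Among 25584 genes, 21.4% had all rod libraries above and 27.9% had all below, and nothing is read from the members' count because the list was chosen on this contrast. The median log2 difference was 1.02 for the 10 genes and -0.39 for all genes. The scale matters here. With reads scaled by library totals the median of all genes moved to -0.75 and that of the members to 0.45, and 6 of the 10 stayed above retina in every library (Hspa1a, Hspa1b, Hsp90aa1, Hspa5, Hspd1 and Dnajb1), as 7.02% of all genes did, with 40.8% below. On that scale Hsph1 and Hspa8 overlapped retina and Hspe1 turned to -0.26, while Hspa1a was at 1.56. In each setting tried, 9 of the 10 genes lay above the median gene, and nothing is read from this count either, for the same reason.

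**Figure D2:**
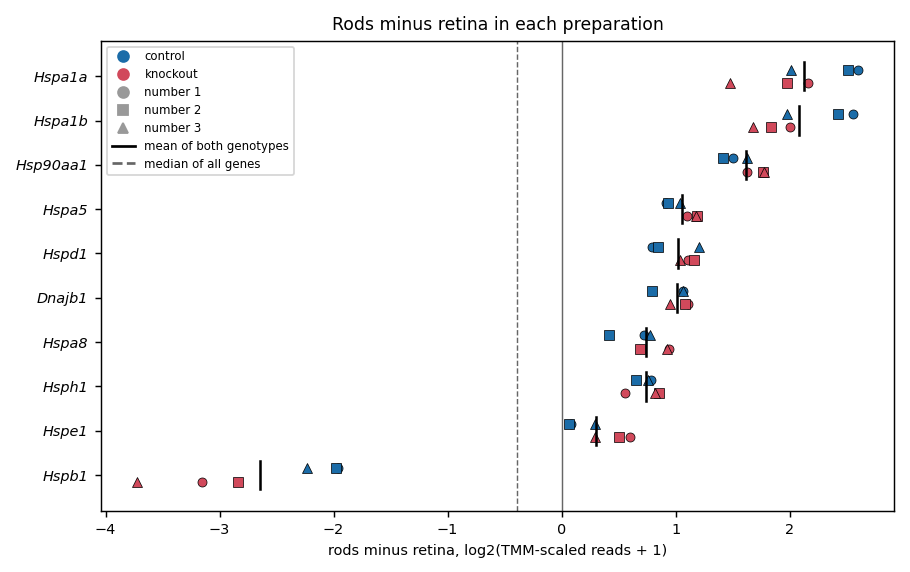
Rods minus retina on the log2(TMM-scaled reads + 1) scale for each gene (rows) in the 6 preparations, a preparation being the rod and retina library of the same genotype and number. The black bar is the mean of both genotypes, the solid line is 0 and the dashed line is the median of all genes at -0.39. Hspa1a lies between 1.47 and 2.60, Hspb1 between -3.72 and -1.96.

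Ordered by scaled reads per kilobase of exon in control rods, Hsp90aa1 was followed by Hspa8 at 4617 ± 716, Hspa5 at 1768 ± 219, Hspd1 at 1266 ± 82.5 and Dnajb1 at 585 ± 64.6 (SD, n = 3). Hspa1b at 421 ± 55.6, Hspe1 at 407 ± 58.1 and Hspa1a at 342 ± 23.4 came next. Of these, Hspe1 did not differ from Hspa1b or from Hspa1a beyond their spread. Hsph1 was at 219 ± 38.0 and Hspb1 at 11.8 ± 4.18. In control retina the order had Hspe1 at 367 ± 35.2 ahead of Dnajb1 at 296 ± 4.45, then Hsph1 at 131 ± 17.0, and the lowest were Hspa1b at 85.9 ± 25.3, Hspa1a at 67.0 ± 18.6 and Hspb1 at 53.3 ± 22.3, whose spreads overlapped. The inducible HSP70 pair thus went from below Hsph1 in control retina to above it in control rods. Exon lengths come from the GENCODE annotation of build GRCm38, whereas the submitters' processing notes name GRCm39.

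Pseudogenes share sequence with several of the abundant members. Hspa8 had 60.6% of its 50-base stretches to itself, and its processed pseudogene Gm15459 held 16.8% as many reads as Hspa8 over the 12 libraries. Hsp90aa1 had 52.5% to itself, and its pseudogene Gm12346 held 10.4% as many reads. The differences of these pseudogenes between rods and retina, 0.82 for Gm15459 and 1.68 for Gm12346 on the log2 scale, lay close to those of the parent genes, and reads in the shared stretches cannot be assigned to parent or copy by sequence. Hspd1 had 57.9% to itself, and its pseudogene Hspd1-ps3 held 6.55% as many reads, with a difference of 1.01. Hspb1 had 49.9% to itself, and its pseudogene Hsp25-ps1 held 8 reads over the 12 libraries. Hsph1 and Hspa5 had all of their stretches to themselves.

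The genes whose profile over the 12 libraries was most like that of Hspa1a, by the root mean square difference of centred log2 values among 11137 genes, were Hspa1b at 0.11 and then Fscn2 at 0.21, Rtbdn at 0.22, Susd3 at 0.23 and Rom1 at 0.23. Fscn2 and Rom1 encode structural proteins of the photoreceptor, and Rom1 is one of the rod markers used above. The list was chosen on rods minus retina, and that difference makes up most of this profile. Genes with a like excess, from 1.84 (Fscn2) to 2.03 (Rom1) besides Hspa1b, therefore come out near, and nothing is read from the likeness. After subtracting the 4 group means, which leaves only the variation between libraries of a group, the nearest were Selenoh at 0.065, Hspa1b at 0.080, the unnamed gene ENSMUSG00000119977 at 0.085, Gm5905 at 0.087 and Gm15710 at 0.088. Hspa1b was the only gene in both sets of 5, and it shares reads with Hspa1a.

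The next comparison asked whether the loss of Pkm2 in rods changed the chaperones there. None of the 10 genes passed an adjusted p of 0.05 in rods by limma on log2(deposited value + 1), none had an unadjusted p under 0.05, and edgeR and DESeq2 on the recovered reads also called none. Of 20658 genes tested, 4 passed, or 0.0194%. The median log2 difference of knockout minus control was 0.067 for the 10 genes and 0.006 for all genes.

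Hspa1a was at 817.6, 732.5 and 823.2 deposited units in control rods and at 882, 650.6 and 586.2 in knockout rods. The knockout libraries spread on both sides of the control libraries. The log2 difference was -0.18 (95% interval -0.48 to 0.11, limma adjusted p = 0.93), and leaving out 1 library gave -0.35 (without knockout library 1) to -0.060 (without knockout library 3). Hspa1b had a difference of -0.027 (interval -0.32 to 0.27).

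Hsp90aa1 was the only member whose rod libraries did not overlap between genotypes, at 42686, 43128 and 39469 in control and 44065, 43448 and 51667 in knockout. Library 3 of the knockout stood well above the others, and the gap between the groups was small. The log2 difference was 0.15 (SE 0.097, limma adjusted p = 0.93; exact two-sided permutation p = 0.1, the smallest that 3 against 3 libraries can give). Among all genes tested, 9.89% had libraries that did not overlap in rods, so 1 of 10 is near that share.

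Hspa8 had a log2 difference of 0.15 in rods, Dnajb1 of 0.13, Hspe1 of 0.11, Hspd1 of 0.080, Hspa5 of 0.054 and Hsph1 of 0.049. All of these intervals included 0, and the narrowest, that of Hspd1, ran from -0.099 to 0.26. Hspb1 was at 10.3, 5.8 and 12.3 deposited units in control rods and at 7.1, 5.4 and 3.2 in knockout rods, a log2 difference of -0.74 with an interval from -1.79 to 0.30. The libraries overlapped and rested on 4 to 10 reads each. The summed Müller glia markers were also lower in knockout rods, at 7948 to 9336 scaled reads against 9657 to 12367 in control, with 9 of 9 genes lower and none past the threshold. Summed markers of amacrine cells were also lower in knockout rods without overlap (1696 to 1947 against 1999 to 2861). So were those of endothelial cells (290 to 410 against 420 to 586). By gene, 7 of 8 amacrine, 3 of 5 tested endothelial and 8 of 8 ganglion cell markers were lower. So were 7 of 9 cone, 6 of 7 bipolar, 5 of 6 microglia and 4 of 6 pigment epithelium markers. The counts were 3 of 3 for red blood cells, 3 of 5 tested for lens and 1 of 10 for rods. None of these markers passed the threshold, and the median log2 difference of all genes tested in rods was 0.006. Whether RNA of any of these cells has a part in the Hspb1 value was not tested.

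In retina none of the 10 genes passed the adjusted threshold by limma, edgeR or DESeq2 either, against 1 of 25590 genes tested, or 0.00391%, which was Pkm. The single member with an unadjusted p under 0.05, as 4.18% of all genes tested had, was Hspa1b, at 253.2, 219.5 and 379.1 deposited units in control and 422, 341.8 and 384.2 in knockout. Control library 3 reached into the knockout range, so the groups overlapped. The log2 difference was 0.46 (SE 0.17, 95% interval 0.090 to 0.84, limma adjusted p = 0.95; exact two-sided permutation p = 0.2), and its p ranked 342nd among the genes tested. Hspa1a, which shares reads with it, was at 200.7, 192.9 and 310.5 in control and 299.6, 247.8 and 322.4 in knockout, a difference of 0.33 (interval -0.049 to 0.71). No member had libraries that did not overlap in retina, where 9.29% of genes did.

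The other 8 genes had log2 differences between -0.21 (Hspe1, interval -0.44 to 0.021) and 0.42 (Hspb1, interval -0.22 to 1.05) in retina. Without control library 2 the value of Hspb1 was 0.090, and without control library 3 it was 0.71. Dnajb1, Hspa8, Hsp90aa1 and Hspd1 were the most tightly measured there. Their differences of 0.061, -0.052, -0.050 and -0.071 had intervals whose limit farthest from 0 was -0.26.

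**Figure D3:**
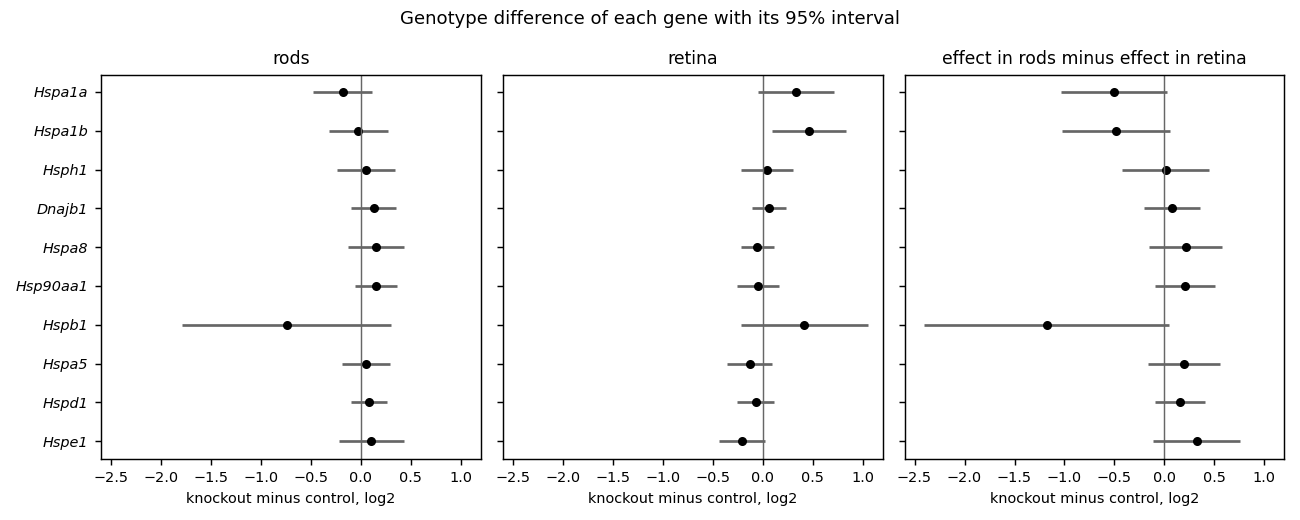
Knockout minus control (log2) of each gene in rods, in retina, and as the effect in rods minus the effect in retina, with the estimate as a point and its 95% interval from limma as a line. Each interval includes 0 except that of Hspa1b in retina, from 0.090 to 0.84, whose adjusted p is 0.95, and the interval of Hspb1 in rods is the widest of the rod intervals.

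Whether the effect of the knockout differed between rods and retina was tested with 1 term over all 12 libraries. The fit treated the libraries as independent, although rod and retina libraries of the same preparation deviated together from their group means. None of the 25584 genes passed, a share of 0%, with 1128 genes at an unadjusted p under 0.05, and edgeR called 0 and DESeq2 1. Hspa1a differed by -0.51 (95% interval -1.04 to 0.029, unadjusted p = 0.062, limma adjusted p = 0.98) and Hspa1b by -0.48 (interval -1.02 to 0.060). In these genes the rod to retina difference was 2.38 and 2.32 in control and 1.87 and 1.84 in knockout, and the preparations of the genotypes overlapped.

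The rod to retina differences of 4 other members did not overlap between the genotypes. Hspb1 was at -1.96, -1.98 and -2.23 in the control preparations and at -3.16, -2.84 and -3.72 in the knockout preparations. Hsp90aa1 was at 1.51, 1.42 and 1.62 in control against 1.63, 1.77 and 1.77 in knockout, Hspa5 at 0.92, 0.93 and 1.03 against 1.10, 1.19 and 1.18, and Hspe1 at 0.078, 0.064 and 0.29 against 0.60, 0.50 and 0.30. The groups lay close together in Hspe1 and in Hsp90aa1. Over all genes 11.3% had preparations that did not overlap, and the lowest adjusted p of the members was 0.98 in the test above by limma. That test did not pair the libraries, so its p does not measure the spread of these differences over preparations. A limma fit with preparation as a block called 0 genes and 0 members, with 1650 genes at an unadjusted p under 0.05.

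Chaperone genes of the same network were listed by their role, 76 genes besides immediate early genes, with earlier results of these libraries known. None passed the adjusted threshold in any of the 3 genotype tests by limma. In rods minus retina the groups differed in their medians, and the counts here are genes with all rod libraries above or all below, which over all genes were 21.4% and 27.9%, or 7.02% and 40.8% with reads scaled by total. Nothing is read from these counts about the lists.

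Of 19 partners of HSP70, 11 were above and 3 below, with a median log2 difference of 0.70. With reads scaled by total, 6 were above and 6 below and the median was 0.14. Hspa14 (1.30) and Dnajb2 (1.24) were highest. Dnajb5 (-0.90) and Hspa12a (-2.39), an HSP70-like protein of neurons, were the lowest of those above 100 scaled reads. Bag3, which links HSP70 to small heat shock proteins and to autophagy, was lower still at -3.24 but below that level, and is named after its value was seen.

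HSP90 and its co-chaperones had 10 of 12 genes above and 1 below, with a median of 0.64, and with reads scaled by total 5 above and 3 below with a median of 0.068. Cacybp was at 1.01. Chordc1 (0.16, or -0.41 with reads scaled by total) overlapped, and the constitutive cytosolic HSP90, Hsp90ab1, was at -0.34 with all rod libraries below all retina libraries. Hsp90ab1 had 2781 ± 69.9 scaled reads per kilobase in control retina and 2028 ± 121 in control rods (SD, n = 3). Per kilobase, the ratio of the inducible Hsp90aa1 to Hsp90ab1 within a library was 1.56 to 1.87 in the retina libraries and 6.06 to 7.40 in the rod libraries, and a ratio within a library does not depend on how the fractions were scaled.

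Small heat shock proteins were split. Hspb6, which is known from muscle, was at 2670 ± 595 scaled reads per kilobase in control rods and 928 ± 146 in control retina (SD, n = 3), a log2 difference of 1.45, the single gene of 7 that was above, with 2 below. The median of the list was -2.05, and -2.33 with reads scaled by total, when 1 was above and 3 below. Cryab, the alpha-B crystallin, was at -3.32, Hspb8 at -2.54 and Cryaa at -2.05 with overlap. Cryaa was at 998 scaled reads in control retina library 1 and 167 in knockout retina library 2. It was at 0.73 to 7.20 in the other retina libraries, so its value rests on few libraries. Crystallins are the main proteins of the lens, whose 6 other markers ranged from 16.9 to 1116 summed scaled reads in retina and from 4.02 to 134 in rods, and the part of lens RNA in the crystallin values was not tested.

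Endoplasmic reticulum chaperones had 15 of 19 genes above and 3 below, with a median of 0.89. With reads scaled by total, 10 were above and 4 below and the median was 0.32. Pdia4 (1.45) and P4hb (1.27), which form disulphide bonds, were highest, and Dnajb9 (-0.85) and Serpinh1 (-2.76), the collagen chaperone, were lowest. Hspa5, at 1.06, thus lay within the upper range of its compartment.

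Mitochondrial chaperones and proteases were above in 9 of 9 genes, from 0.39 (Grpel2, which turned to -0.18 with reads scaled by total) to 1.15 (Dnaja3), with a median of 0.82. With reads scaled by total, 5 were above and 0 below, and the median was 0.25. Hspa9, the mitochondrial HSP70, was at 1.04, and Clpp, a protease, at 0.62.

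Regulators of the heat shock and unfolded protein responses had 5 of 10 genes above and 1 below, with a median of 0.28, but 2 above and 4 below with a median of -0.29 when reads were scaled by total. Atf4 (1.09) and Eif2ak3 (1.01), the kinase PERK, were highest. Hsf2 (0.079) and Xbp1 (0.17) overlapped, and Hsf1, the activator of the heat shock genes, was at 0.18 and overlapped also. Ddit3 occurs with 2 table entries, of which 1 was tested.

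Immediate early genes, which respond within minutes to handling, light or activity, had 5 of 14 above and 3 below, with a median of 0.22, but 1 above and 5 below with a median of -0.34 when reads were scaled by total. Atf3 was highest at 1.66 and Junb followed at 0.90 with overlap, whereas Egr1 (0.20) and Dusp1 (-0.31) overlapped. With reads scaled by total, 10 of the 24 regulators and immediate early genes changed sign, Hsf1, Hsf2, Xbp1 and Egr1 among them, and none of Atf3, Atf4, Eif2ak3 or Junb did.

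**Figure D4:**
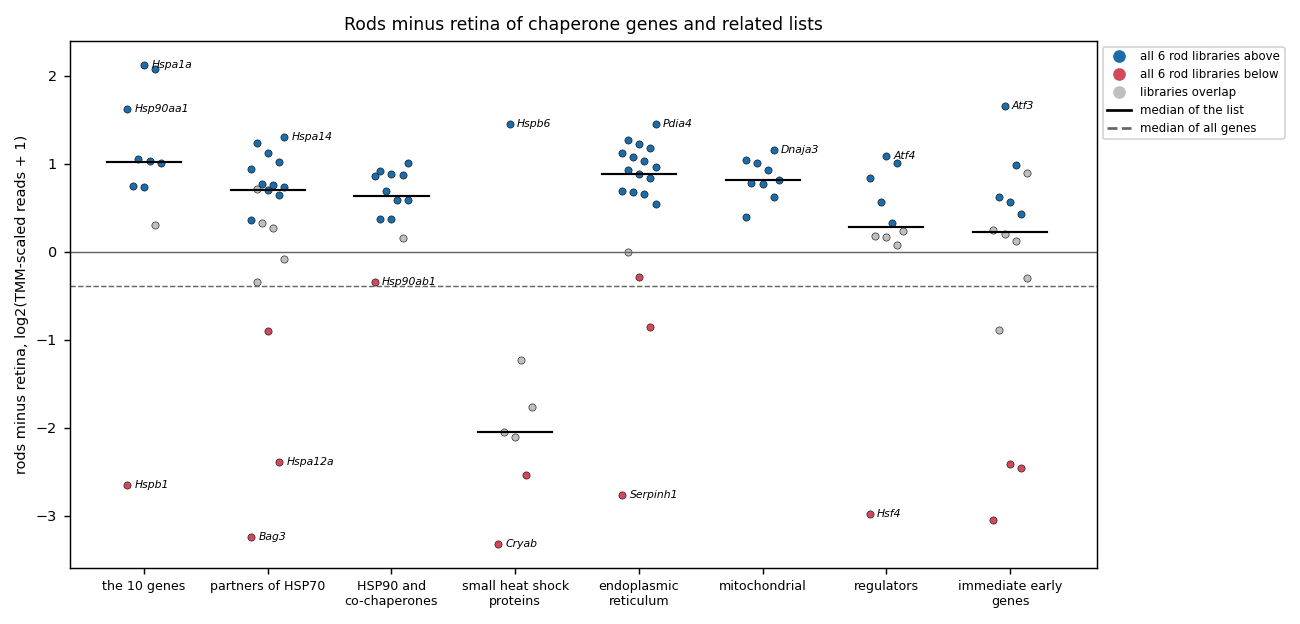
Rods minus retina on the log2(TMM-scaled reads + 1) scale for the 10 genes and for 7 lists of related genes, 1 point a gene. Blue marks genes with all 6 rod libraries above all 6 retina libraries, red those with all below and grey those that overlap; black bars are list medians and the dashed line is the median of all genes at -0.39. Hspa1a lies above every listed gene, and Cryab is the lowest at -3.32.

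The libraries numbered 2 held the lowest value of their group in all 4 groups for 3 of the 10 genes, Hsph1, Hspa8 and Hspa5, and 2.58% of 11137 genes with a mean of at least 100 scaled reads did so. Hspa8 in rods was at 12794 deposited units in control library 2 and 14123 in knockout library 2, against 16689 to 19266 in the other rod libraries. In retina its library 2 values were 14502 and 13259, against 14449 to 15553 in the other retina libraries. These genes were singled out after their values were seen, and library number was not a factor in the study's labels.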

How the data were processed

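RNA of the retina before TRAP (input) and of rods after TRAP (bead) was sequenced as polyA RNA from control and knockout mice, with 12 libraries in 4 groups taken from the sample labels. In the only table the authors deposited, the signal of a gene in a library is its read count over the size factor of that library, to 1 decimal. The submitters' processing notes name CASAVA 1.8.2, HISAT2, DESeq2, edgeR and the build GRCm39, without roles, and the rule for reads that match several genes is not given in the sources used here. Each fraction was scaled on its own. Dividing by the value of 1 read gave whole reads for 100% of positive values (within 0.06 units), 13458890 to 22790074 per library. The read count of a gene sets an upper limit to its precision in a library.

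The genotype effect was tested in rods and in retina with limma 3.58.1 (R 4.3.3) and a variance trend on log2(value + 1), over genes with a mean of at least 1 in a genotype, with Benjamini-Hochberg adjustment over all genes tested and a threshold of 0.05. The difference between the fractions was tested on log2(TMM-scaled reads + 1), with no term for the pairing of rod and retina libraries. Since the table holds scaled values and not counts, edgeR 4.0.16 and DESeq2 1.42.0 ran only on the recovered reads, as alternatives. edgeR called 4 genes in rods, 1 in retina and 0 in the difference. Exact permutation tests had a smallest p of 0.1. The fits were tested on simulated data.

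Rod and retina libraries of the same genotype and number deviated together from their group means (correlations 0.29 to 0.59 over 11137 genes), and these are called preparations. Control and knockout libraries of the same number did not (-0.30 to 0.071). Replicate libraries differed by more than sampling noise. Alternatives were other tools, filters, pseudocounts and scalings, a block by library number, and leaving out each library. Overlap of 50-base stretches used GENCODE transcripts of GRCm38, and promoters came from RefSeq on GRCm38.p6.

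Named genes were the 10 members, Pkm, listed genes past the threshold, the 2 highest and 2 lowest of each list in rods minus retina of control mice above 100 scaled reads, and the 5 genes most like Hspa1a. Of these, 1 listed gene is not reported here. The members and lists were chosen with earlier results of these data known.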

Additional observations from a re-analysis of the deposited data

How the results depend on the processing

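None of the 10 genes passed the threshold in any genotype test under any alternative run, with adjusted p from 0.553 upward. Hspb1 did not enter the runs with at least 10 reads in every library in rods or in the difference between fractions. The number of all genes past the threshold in rods was 4, and it was 7 by DESeq2, 8 with the replicate block and 18 in 1 fit of all 12 libraries. Leaving out 1 library gave 2 to 6, the lowest without control library 1, control library 2 or knockout library 3. In retina it was 1, and 0 with at least 10 reads in every library or with the replicate block, and 0 to 4 without 1 library, the highest without control library 3. In the difference between fractions it was 0, and 1 by DESeq2. The block by number changed no call of a member. A block of rod and retina library within genotype, added after the data were seen, called 0 genes.

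Small differences changed sign. In the difference between fractions Hsph1 was at -0.0081 by edgeR, -0.0052 by DESeq2, -0.023 with reads scaled by total and -0.0026 with relative log expression scaling. Leaving out 1 library gave Hsph1 -0.13 to 0.12 and Dnajb1 -0.017 to 0.13 there. In rods it gave Hspa1b -0.18 to 0.055, Hsph1 -0.10 to 0.13, Hspa5 -0.046 to 0.15 and Hspe1 -0.045 to 0.24. In retina it gave Hsph1 -0.063 to 0.17, Hsp90aa1 -0.14 to 0.023 and Hspa8 -0.11 to 0.0067. Leaving out 1 library also moved values that kept their sign, among them Hspa1a (-0.35 to -0.060) and Hsp90aa1 (0.068, without knockout library 3, to 0.19) in rods, and Hspa1b (0.30, without control library 2, to 0.69) and Hspb1 (0.090 to 0.71) in retina. In rods minus retina, Hspe1 was at -0.26 with reads scaled by total and -0.29 on the deposited values, and the median of the 10 genes was 0.45 and 0.42.

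The 4 to 10 reads of Hspb1 in a rod library limit its value there, and 3 libraries a group limit all genotype tests.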
